A study of Mus musculus with 96 samples.

Results

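The respiratory chain genes of mouse microglia were examined in 2 parts, the nuclear genes and the genes of the mitochondrial genome. Members were chosen by name alone, as protein-coding genes whose symbols begin with Nduf, Sdh, Uqcr, Cox4 to Cox8, Atp5, mt-Nd, mt-Co, mt-Atp or mt-Cytb. Of 54532 gene models in the count tables, 111 met this rule, 98 of them nuclear and 13 mitochondrial (mt-). The nuclear members comprised 36 subunits and 8 assembly factors of complex I, 4 subunits and 4 assembly factors of complex II, 8 members of complex III, 20 of complex IV and 18 of ATP synthase, including a second, almost silent model named Atp5o. The mt- members comprised 7 subunits of complex I, 1 of complex III, 3 of complex IV and 2 of ATP synthase. A further 13 names that match the rule were left out, 12 of them processed pseudogenes and 1 a noncoding model (Ndufb1-ps).

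The study took wild-type mice of 2 ages, called young (3 to 5 months) and old (20 to 22 months), that had abdominal surgery or served as controls. What the controls underwent is not stated in the labels. Microglia were sorted 6 h or 48 h later as CD11b+ Fcrls+ Ly6C- cells from the hemisphere and from the hippocampus, 1000 cells per library, and sequenced by Smart-seq2, a full-length protocol whose original form does not mark strand. The 96 libraries form 16 groups and came from 48 animals, each of which gave 1 library per region, as the shared sort number in the library names shows. Each of the 4 young groups (control and surgery, at 6 h and 48 h) held 4 animals. The old groups held 8 controls and 7 surgery animals at 6 h, and 8 controls and 9 surgery animals at 48 h.

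The respiratory chain sits in the inner mitochondrial membrane. Complex I (NADH dehydrogenase) and complex II (succinate dehydrogenase) pass electrons to ubiquinone, complex III passes them on to cytochrome c, and complex IV (cytochrome c oxidase) passes them to oxygen, while ATP synthase uses the proton gradient to make ATP. All complexes but complex II combine subunits encoded in the nucleus with subunits encoded in mitochondrial DNA, and the latter are cut from long transcripts made by the mitochondrial polymerase from a genome present in many copies per cell. In microglia, as in other macrophages, the balance between respiration and glycolysis is known to shift with activation.

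The libraries held 1874168 to 3778939 counts, of which 15 large repeat-like or ribosomal gene models took 53.05% to 81.2%, and 465922 to 1500332 counts lay outside these models. Levels are counts divided by the total outside the 15 models and multiplied by 1000000 (CPM), and per kilobase of exon where genes are compared with each other. A fold change is printed on the log2 scale, followed by ± its standard error (SE). In 6 libraries at 6 h (from hemisphere, replicate 7 of old controls and replicate 6 of old animals after surgery, and from hippocampus, replicates 5 and 6 of old animals after surgery and replicates 1 and 4 of young controls) the value 1 made up less than 30% of the gene counts from 1 to 3 (at most 24.7%, against at least 42.7% in the other libraries), and these are called stepped libraries. None of the 10 microglial markers (P2ry12, Tmem119 and others) had a median of 0, and the median of their median levels was 1752 CPM. All 6 neutrophil markers and all 5 erythrocyte markers had a median of 0, though the neutrophil markers summed to 696 CPM in the highest library. The 6 astrocyte markers summed to a median of 197 CPM (highest 575) and the 6 oligodendrocyte markers to 137 (highest 369). The 5 choroid plexus markers summed to a median of 222 CPM and ranged from 15.3 to 5733, and the 5 B cell markers summed to a median of 360.1 CPM. In such bulk libraries, fewer cells of a type and less RNA per cell cannot be told apart.

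Before the levels of the mt- genes can be read, their nuclear copies have to be considered. A run of mitochondrial DNA is inserted in the minus strand of chromosome 1 (mm10, 24611535 to 24616197), and the annotation gives separate gene models to 7 stretches of it. Each of the 7 is at least 99% identical to an mt- member over at least 90% of its own length: Gm10925 to mt-Atp6, Gm28661 to mt-Co2, Gm28437 to mt-Co3, Gm28438 to mt-Nd3, Gm10222 to mt-Nd4l, Gm28439 to mt-Nd4 and Gm29216 to the end of mt-Co1. Gm10925 (chr1:24613974-24614651) matches mt-Atp6 over all of its 678 bases without a mismatch. Reads from either source therefore cannot be assigned by sequence. The first 90 bases of both are shown because the deposited counts of this pair switch between the models from library to library. The capitals mark the 43 bases that mt-Atp6 shares with the end of mt-Atp8 on the mitochondrial genome, where both genes are read from 1 transcript in different frames.
mt-Atp6: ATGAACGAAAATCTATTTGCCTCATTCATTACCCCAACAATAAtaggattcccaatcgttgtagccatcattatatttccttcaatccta
Gm10925: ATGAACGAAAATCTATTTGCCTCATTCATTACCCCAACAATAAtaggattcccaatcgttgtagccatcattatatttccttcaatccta
mt-Atp8: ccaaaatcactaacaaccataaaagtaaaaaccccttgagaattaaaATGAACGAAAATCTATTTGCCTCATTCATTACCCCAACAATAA

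Gm29216 (chr1:24615706-24616197) and mt-Co1 differ at 1 base of 483 aligned bases, and Gm28438 (chr1:24612775-24613119) and mt-Nd3 at 1 base of 345. Both mismatches lie near the start of the copy, so that most reads of these stretches do not separate the sources either. The 60 bases around each mismatch are shown with the differing base in capitals. Positions are counted from 1 at the first base of the mt- transcript, where mt-Co1 against Gm29216 is A1066T and mt-Nd3 against Gm28438 is T3C.
mt-Co1: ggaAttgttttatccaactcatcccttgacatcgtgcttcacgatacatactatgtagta
Gm29216: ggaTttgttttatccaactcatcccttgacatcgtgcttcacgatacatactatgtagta
mt-Nd3: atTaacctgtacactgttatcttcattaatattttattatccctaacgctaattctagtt
Gm28438: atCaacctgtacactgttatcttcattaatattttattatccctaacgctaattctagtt

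The deposited counts of several mt- genes jumped to 0 in single libraries, and the copy then held the counts. mt-Atp6, subunit a of ATP synthase, stood at 0 in 12 libraries, in which Gm10925 held 211 to 530 counts. mt-Nd4l was at 0 in 28 libraries (Gm10222 at 40 to 258 counts there), mt-Nd3 in 19 (Gm28438 at 22 to 84) and mt-Co2 in 3 (Gm28661 at 208 to 445). In no library were a gene and its copy both at 0. Where these genes were above 0, their lowest counts were 27 for mt-Atp6, 40 for mt-Nd4l, 17 for mt-Nd3 and 122 for mt-Co2, so that no library held a small count between 0 and these values. The spread within groups fell when gene and copy were added: the SD of log2 CPM went from 2.79 to 0.296 for mt-Atp6, from 3.05 to 0.344 for mt-Nd4l and from 2.42 to 0.367 for mt-Nd3. Values of mt-Atp6, mt-Nd3 and mt-Nd4l alone therefore depend on how the deposited counts were split.

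The split was not even over the groups. Gm10925 held 18.1% of the joint counts with mt-Atp6 in the 24 control libraries at 6 h and was above 0 in 8 of them, against 51.05% and 18 of 22 surgery libraries at 6 h. At 48 h the shares were 39.2% in controls and 54.8% after surgery. All 8 young control libraries at 6 h had 0 counts for Gm10925. Gm29216 took 35.4% of its joint counts with mt-Co1, a gene that was above 0 in every library, and Gm28439, the copy of mt-Nd4, had no count in any library. The remaining 6 mt- members (mt-Nd1, mt-Nd2, mt-Nd5, mt-Nd6, mt-Cytb and mt-Atp8) have no near-identical copy among the annotated transcripts. The results below rest mainly on them, on mt-Nd4 and on mt-Co1, with the sum of gene and copy given beside. For mt-Atp8 an unannotated copy is possible. It lies between mt-Co2 and mt-Atp6, whose copies Gm28661 and Gm10925 are both in the insert, and its last 43 bases recur in Gm10925. Whether the stretch between these copies holds the rest of mt-Atp8 was not tested.

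**Figure D1:**
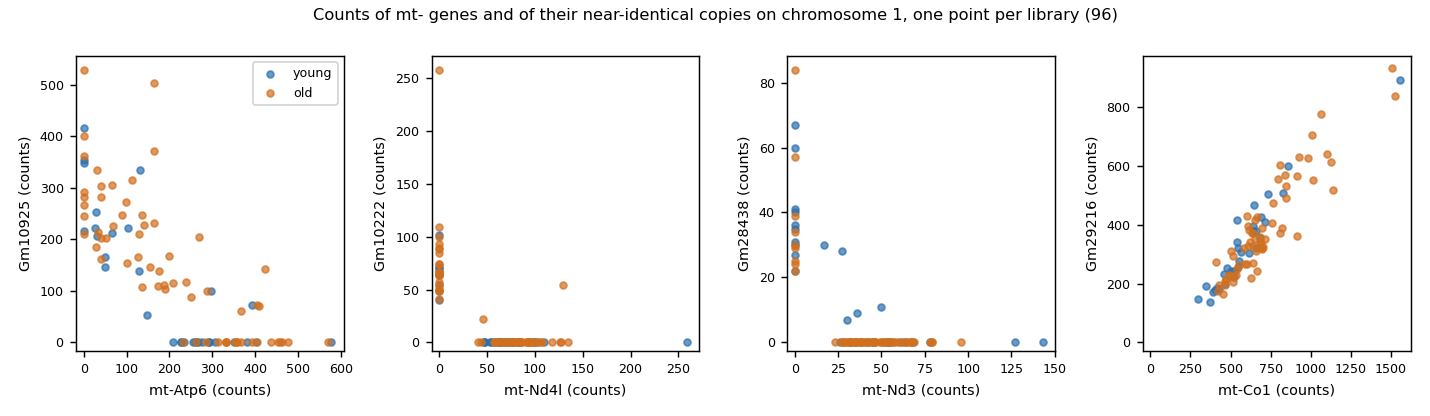
Counts of 4 mt- genes and of their near-identical copies in the deposited tables, 1 point per library, young and old in separate colours, with the mt- gene on the x axis and the copy on the y axis. For mt-Atp6, mt-Nd3 and mt-Nd4l many points lie on an axis, where 1 of the 2 models holds all the counts, and none lies at the origin, while mt-Co1 and Gm29216 hold counts in all 96 libraries.

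Per kilobase of exon, the mt- transcripts stood far above the nuclear ones. mt-Nd1, a membrane subunit of complex I, was highest with a median of 860.1 CPM per kb over the 96 libraries, followed by the catalytic complex IV subunits mt-Co2 (633) and mt-Co1 (610.2). mt-Atp8 (474), mt-Co3 (458), mt-Atp6 (428) and mt-Cytb (409), the only mt- member of complex III, formed a middle group, with mt-Nd4l at 351 and mt-Nd5 at 289 below it. mt-Nd4 (206), mt-Nd3 (179) and mt-Nd2 (85.4) were lower, and mt-Nd6, the only member encoded on the light strand, was lowest at 43.8. The levels of mt- genes from 1 precursor thus spanned a wide range. Those of mt-Co1, mt-Co2, mt-Co3, mt-Atp6, mt-Nd3 and mt-Nd4l would rise if the counts of the copies were added. Neighbours such as mt-Co2 and mt-Co1, or mt-Atp6 and mt-Cytb, ranged over each other's medians between libraries.

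Summed over all 13 genes, the mt- members held 2806 to 7885 CPM (median 4489) and the 98 nuclear members 3237 to 5957 CPM (median 4619). As deposited, both parts thus contributed about the same number of counts, from 13 genes on one side and 98 on the other. The mt- sum leaves out the counts of the copies, such as 35387 of Gm29216 and 13280 of Gm10925 over the 96 libraries. With them the mt- sum would be higher. Within groups the mt- sum had an SD of 0.258 on the log2 scale and the nuclear sum 0.169. Group medians of the mt- sum ran from 3439.9 CPM (young surgery hippocampus 48 h) to 5641 CPM (old surgery hemisphere 6 h). All 8 young groups had medians between 3439.9 and 4291 CPM, and the 8 old groups between 4286 and 5641. The nuclear sum had group medians from 4107 CPM (young surgery hemisphere 48 h) to 5117 CPM (young control hippocampus 48 h), both of them young groups.

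Among the nuclear members, complex IV held the highest single levels. Cox8a, a small structural subunit, had a median of 147 CPM per kb, Cox4i1, the regulatory subunit that binds ATP, 127, and Cox6b1 92.6. Cox6a1 (83.6), Cox7a2 (52.8), Ndufa4 (46.9), which was long counted as a complex I subunit and is found in complex IV, Cox5b (31.6), Cox5a (15.4) and Cox6c (14.6) followed. Cox7a2l, which ties complexes III and IV into supercomplexes, stood at 74.2. Where complex IV subunits exist in tissue-specific forms, microglia showed the general form. Cox4i2, Cox7a1 and Cox8b, the forms known from lung and from muscle, had a median of 0, as had Ndufa4l2, Cox8c and Cox7b2, and Cox6a2, the heart and muscle form, stood at 2.58 CPM per kb against 83.6 for Cox6a1. Cox4i2 was above 0 in 26 of 96 libraries and Cox7a1 in 18, so that they were near the limit of detection rather than shown to be absent.

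For the 36 nuclear subunits of complex I the lowest, median and highest levels were 6.34, 24.5 and 91.8 CPM per kb, with Ndufa2 at the top. The core subunits Ndufv1 (20.1), which holds the flavin, and Ndufs1 (6.89), which carries iron-sulfur clusters, were in the lower part, and Ndufb8 was at 14.8. The 8 complex I assembly factors lay lower, at 2.15, 6.05 and 19.6 CPM per kb, with Ndufaf1 at 5.66. In complex II, the iron-sulfur subunit Sdhb stood at 40.2, the flavoprotein Sdha at 30.4 and the membrane anchors Sdhd and Sdhc at 30.3 and 11.2 CPM per kb. The 8 complex III members spanned 24, 33.7 and 56.4 CPM per kb, the narrowest range of the complexes with nuclear and mt- subunits, with the core proteins Uqcrc1 at 31.1 and Uqcrc2 at 24.6 and the Rieske protein Uqcrfs1 at 29.5. In ATP synthase, the catalytic head subunits Atp5a1 (72.1) and Atp5b (61.4) led, and the genes of the membrane ring, Atp5g1 (15.4) and Atp5g3 (15.9), and the stalk subunit Atp5j (19.5) and Atp5k (19.2) were lower. Of the 98 nuclear members 91 had a median above 0, and the median over all 98 was 21.7 CPM per kb. Exon length is the union over all annotated transcripts, which lowers the level of genes with long, rarely used exons.

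**Figure D2:**
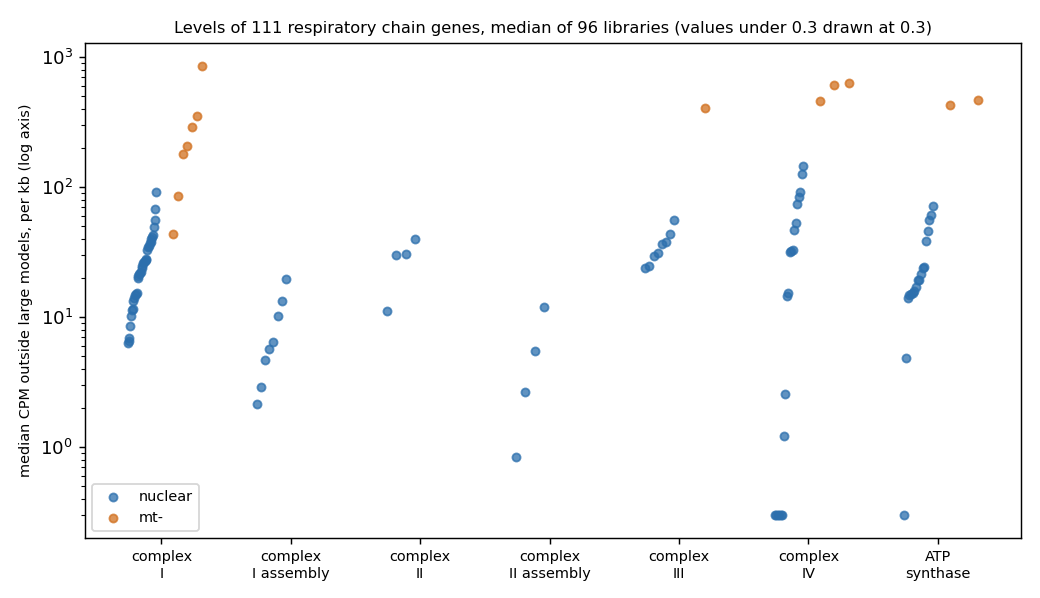
Median level of each member over the 96 libraries in CPM per kb of exon, on a log axis, by complex, with nuclear and mt- members in separate colours. Each point is 1 gene, and the mt- members sit between 43.8 and 860.1, with mt-Nd6 and mt-Nd2 inside the range of the nuclear complex I members and the other 11 above all nuclear members of their complex.

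The gene models of nuclear members are not all free of neighbours. Of the 98, 44 overlap another model, 13 of them on the same strand, and no source used here says whether counting took strand into account, so that reads of opposite genes cannot be told apart. The mt- genes mt-Atp8, mt-Atp6 and mt-Co3 overlap or abut each other, as do mt-Nd4l and mt-Nd4. Cox6a2 (chr7:128205435-128206387, minus strand) lies within Itgad, which is on the plus strand. Atp5g2, another gene of the membrane ring of ATP synthase, ranged from 0 in 9 libraries to 128 CPM. Whether reads of Atp5g2 or of other nuclear members were shared with processed pseudogenes was not tested.

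Transcripts of the mitochondrial genome were higher in old than in young animals. With the counts of both regions of an animal added (a fit chosen after the data were seen, 32 old against 16 young animals, averaged over treatment and time), all 13 mt- members had a positive fold change from young to old, with a median of 0.29, and 6 were called higher in old animals by edgeR (BH below 0.05). These were mt-Co1, mt-Cytb, mt-Atp8, mt-Nd4, mt-Nd5 and mt-Nd1, and their rises were of 0.25 to 0.39 on the log2 scale. None of 88 nuclear members tested was called, with a median of 0.03, and 8 had an unadjusted p below 0.05 (9.09%, against 10.4% of all genes). DESeq2 called 7 mt- members (these 6 and mt-Co2) and Cox7a2l, and limma voom the same 6 mt- members and no nuclear one. Of all 17586 genes tested, 1.9% were called, their median fold change was 0.00482, and 51.3% were positive. The mt- members are read from shared precursors and are not independent of each other, so that the count of 13 positive values is a description.

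mt-Co1 encodes the subunit of complex IV that binds heme and copper and reduces oxygen. mt-Co1 stood at 925, 954, 869.7 and 747 CPM in the 4 young controls and at 845, 755, 911 and 915 in the 4 young surgery animals at 6 h, and at 662, 918, 638 and 808 and 708, 789, 803 and 669.7 in those at 48 h. The lowest, median and highest old animals had 899.7, 1122 and 1150.2 CPM among the 8 controls and 1020.4, 1140.3 and 1513 among the 7 surgery animals at 6 h, and 702, 889 and 1135 among the 8 controls and 886, 1049 and 1154 among the 9 surgery animals at 48 h. Of the 32 old animals, 31 lay above the young median of 805 CPM and 22 above the highest young animal, and at each time and treatment the old median was above the young one. The log2 fold change was 0.38 ± 0.06 (SE, edgeR BH 1.85e-05). The call was made in all 48 fits that left out 1 animal, by DESeq2 and limma voom, and within the animals whose sort numbers lay in the range of the young ones (0.36, BH 0.0125).

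mt-Cytb encodes cytochrome b of complex III. mt-Cytb stood at 398, 463, 419 and 365 CPM in the 4 young controls and at 429, 363, 438 and 474 in the 4 young surgery animals at 6 h, and at 373, 512, 333 and 427 and 375, 391, 413 and 336 in those at 48 h. The lowest, median and highest old animals had 416, 524 and 588 CPM among the 8 controls and 407, 511 and 714 among the 7 surgery animals at 6 h, and 385, 475 and 518 among the 8 controls and 461, 518 and 583 among the 9 surgery animals at 48 h. Old animals were above the young median in 31 of 32 cases and above the highest young animal in 14, against 22 for mt-Co1. In turn, 6 young animals lay below every old one, against 3 for mt-Co1. The fold change was 0.33 ± 0.06 (edgeR BH 0.000351), and in the sort range of the young animals it was 0.34 (BH 0.0446).

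mt-Atp8, a short subunit of the ATP synthase membrane part, went from 56.9, 80.4 and 115 CPM (lowest, median and highest) in the 16 young to 52.5, 105.8 and 161 in the 32 old animals, with 30 old animals above the young median, and rose by 0.39 ± 0.09 (edgeR BH 0.0117). mt-Nd4, a proton-pumping subunit of complex I, went from 197, 263 and 301 CPM (lowest, median and highest) in the 16 young to 242, 307 and 453 in the 32 old animals and rose by 0.29 ± 0.07 (BH 0.00588), with 18 old animals above every young one. Both calls were made in all 48 fits without 1 animal, but neither with no filter on low counts (mt-Atp8 0.39, BH 0.0536, and mt-Nd4 0.28, BH 0.0904) nor within the sort range of the young animals (BH 0.122 and 0.0518). mt-Nd5, another proton-pumping subunit, went from 327, 459 and 588 CPM (lowest, median and highest) in the 16 young to 358, 566 and 922 in the 32 old animals and rose by 0.29 ± 0.08 (BH 0.0367). mt-Nd1 went from 576, 708 and 955 CPM (lowest, median and highest) in the 16 young to 624, 829 and 1211 in the 32 old animals and rose by 0.25 ± 0.07 (BH 0.0352). These last calls lay close to the threshold and depended on single animals.

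mt-Nd1 was called in 36 of the 48 fits that left out 1 animal. Its call was lost (BH 0.0501 to 0.0887, fold change 0.23 to 0.25) without any 1 of old control 48 h replicate 2, young control 48 h replicates 1, 3 and 4, young control 6 h replicates 1, 3 and 4, young surgery 48 h replicates 1, 3 and 4 and young surgery 6 h replicates 1 and 2. mt-Nd5 was called in 37 of 48, and its call was lost (BH 0.0503 to 0.0982, fold change 0.26 to 0.29) without any 1 of old control 48 h replicates 2 and 7, old control 6 h replicate 3, young control 48 h replicates 1 and 3, young control 6 h replicates 3 and 4, young surgery 48 h replicates 1 and 4 and young surgery 6 h replicates 2 and 4. The sign stayed positive for both genes in all 48 fits.

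The other 7 mt- members were not called over all groups. mt-Co2 had 0.34 ± 0.10 (edgeR BH 0.059), mt-Co3 0.25 ± 0.09 (BH 0.151) and mt-Nd2 0.17 ± 0.08 (BH 0.395). mt-Nd6 from the light strand had 0.16 ± 0.11, with an interval of -0.06 to 0.39. mt-Nd3 (0.37 ± 0.33), mt-Atp6 (0.23 ± 0.28) and mt-Nd4l (0.05 ± 0.35) had standard errors several times larger, and are the genes whose counts were split with a copy in many libraries.

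With each mt- gene added to its copy, a second choice made after the data were seen, edgeR called 9 of 13 higher in old animals, the 6 above and also mt-Co2 (0.34 ± 0.07), mt-Atp6 (0.33 ± 0.08) and mt-Co3 (0.26 ± 0.06), and the median was 0.29. The sum of mt-Co1 and Gm29216 rose by 0.37 ± 0.06. mt-Nd4l with its copy had 0.24 ± 0.09 and mt-Nd3 with its copy -0.03 ± 0.09, the only value below 0. This value averages times of opposite sign. At 6 h all 13 genes were positive, from 0.24 to 0.47. At 48 h 12 were positive, and mt-Nd3 with its copy was lowest at -0.45, without a call. The sum of mt-Atp6 and Gm10925 went from 312, 405 and 606 CPM (lowest, median and highest) in the 16 young to 351, 521 and 741 in the 32 old animals, with 30 of 32 old animals above the young median.

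**Figure D3:**
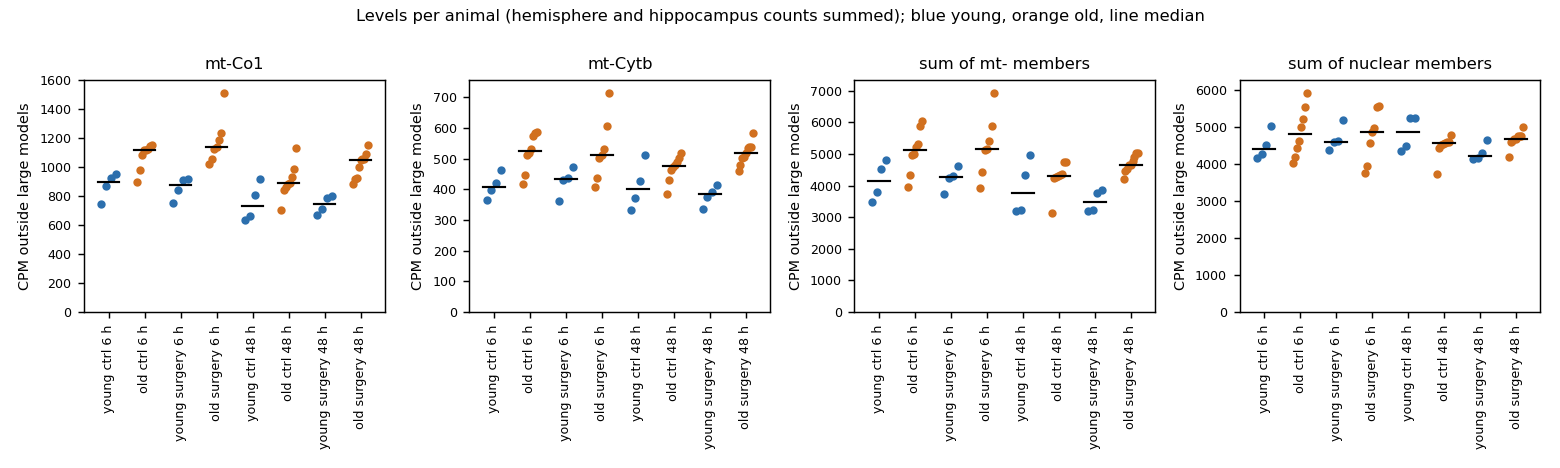
Levels in CPM of mt-Co1, mt-Cytb and the summed mt- and nuclear members in the 48 animals, both regions added, by age, treatment and time, with 1 point per animal and a bar at the median of each group. For mt-Co1, 31 of 32 old animals lie above the young median of 805 CPM, while the nuclear sum overlaps widely between the ages.

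The sum of mt- members (all 13), given with no test, went from 3183, 3837 and 4964 CPM (lowest, median and highest) in the 16 young to 3143, 4753 and 6937 in the 32 old animals, and 31 of 32 old animals lay above the young median. The sum of nuclear members went from 4146, 4499.7 and 5255 CPM (lowest, median and highest) in the 16 young to 3733, 4626 and 5920.5 in the 32 old animals, with 24 of 32 above. Averaged over group means, old libraries stood 0.286 above young ones in the mt- sum and 0.0329 in the nuclear sum on the log2 scale. The large ribosomal RNA of the mitochondria, mt-Rnr2, which is no member and is made from the same strand, rose with age as well, by 0.37 ± 0.07 (edgeR BH 0.00133). By time, mt-Rnr2 was called at 6 h (0.48, edgeR BH 0.0101) and not at 48 h. The sort numbers moved with age: young animals had 41 to 54 at 6 h and 75 to 90 at 48 h, and old animals 40 to 72 at 6 h and from 76 upward at 48 h. Of the 32 old animals 13 lay in the range of the young ones, and there 2 mt- members, mt-Co1 and mt-Cytb, were called. The fold changes of the other 4 were as large there as over all animals, mt-Atp8 at 0.40 (edgeR BH 0.122), mt-Nd4 at 0.32 (BH 0.0518), mt-Nd5 at 0.32 (BH 0.216) and mt-Nd1 at 0.29 (BH 0.17), with fewer animals and larger standard errors of 0.08 to 0.12. Summed choroid plexus markers had a median of 298 CPM in young and 202 in old libraries and summed neuronal markers 26.1 and 20.9, and their part in the results was not tested.

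By time, edgeR called mt-Co1 and mt-Cytb of the 13 mt- members and Cox6a1 of the 88 nuclear members higher in old animals at 6 h (15 against 8 animals), where 0.967% of all genes were called. mt-Co1 rose by 0.40 ± 0.08 (BH 0.00489) and mt-Cytb by 0.34 ± 0.09 (BH 0.0289). At 48 h (17 against 8 animals) only mt-Co1 was called, by 0.35 ± 0.08 (BH 0.0139), against 0.887% of all genes, and mt-Cytb had 0.31 (BH 0.0579). None of the 88 nuclear members was called at 48 h by edgeR, DESeq2 or limma voom, and 7 had an unadjusted p below 0.05 (7.955%, against 8.49% of all genes). The medians of the mt- members were 0.31 at 6 h and 0.26 at 48 h, and those of the nuclear members 0.09 and -0.02. Whether the age difference itself differed between the times was not tested. The 6 h call of mt-Cytb was lost (BH 0.0553 to 0.132, fold change 0.30 to 0.35) without any single one of old surgery 6 h replicate 2, young control 6 h replicates 1, 3 and 4 and young surgery 6 h replicates 1, 2 and 3, and the 48 h call of mt-Co1 without young control 48 h replicate 1 (0.33, BH 0.0596).

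Cox6a1, the general form of a nuclear complex IV subunit, was the only nuclear member called in these fits. Cox6a1 stood at 52, 60.2, 55.2 and 33.6 CPM in the 4 young controls and at 54.7, 57.1, 36.3 and 70.5 in the 4 young surgery animals at 6 h, and at 58.4, 66.2, 46 and 66.7 and 48.2, 59.3, 62 and 47.5 in those at 48 h. The lowest, median and highest old animals had 60.4, 73.2 and 89.3 CPM among the 8 controls and 57.5, 69.2 and 81.4 among the 7 surgery animals at 6 h, and 44.3, 59.6 and 73.6 among the 8 controls and 52.4, 55.6 and 62.7 among the 9 surgery animals at 48 h. At 6 h old animals were higher by 0.48 ± 0.11 (edgeR BH 0.0177), with the lowest young animals at 33.6 and 36.3 CPM. At 48 h the difference was 0.02 ± 0.11 and over all groups 0.25 ± 0.08 (BH 0.105). The 6 h call was lost without young control 6 h replicate 4 (BH 0.0941) or young surgery 6 h replicate 3 (BH 0.0857), the 2 lowest young animals. DESeq2 and limma voom also made the 6 h call.

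The 3 calls at 6 h did not pass in some other settings. Without the stepped libraries mt-Co1 had 0.39 (BH 0.0703), mt-Cytb 0.33 (BH 0.189) and Cox6a1 0.36 (BH 0.291). With no filter on low counts they had 0.38 (BH 0.109), 0.32 (BH 0.309) and 0.45 (BH 0.18), and within the sort range of the young animals 0.44 (BH 0.0991), 0.43 (BH 0.163) and 0.51 (BH 0.208). For mt-Co1 at 48 h the values were 0.37 (BH 0.128) with no filter and 0.28 (BH 0.563) within the sort range. All these fold changes were positive, and the filter changes the number of genes over which p-values are adjusted. With no filter the standard errors were larger as well. At 6 h they were 0.106 against 0.0861 with the filter for mt-Cytb, and 0.131 against 0.113 for Cox6a1.

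For most nuclear members the age difference was bounded, though not below the size of the mt- rises. Of 88, 82 had a 95% interval within a 1.5-fold change in either direction and 87 within a 2-fold change. Of all 17586 genes tested, 12098 and 15689 did. A 1.5-fold change is larger than the mt- rises of 0.25 to 0.39 on the log2 scale. The largest positive values were those of Ndufaf1 (0.33), Atp5g2 (0.32) and Cox6a1 (0.25) and the largest negative those of Ndufaf6 (-0.46), Sdhaf3 (-0.44) and Ndufaf2 (-0.30). In complex I, Ndufv1 had 0.03, Ndufs1 -0.02 and Ndufb8 -0.07. Ndufs8, an iron-sulfur subunit, had the lowest BH in the negative direction (-0.25 ± 0.08, BH 0.103). In complex II, Sdha had 0.13, Sdhb -0.04, Sdhc 0.20 and Sdhd -0.01. In complex III, Uqcrc1 had 0.09, Uqcrc2 -0.15 and Uqcrfs1 0.10. None of these passed the test.

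In complex IV, Cox7a2l had the lowest BH of all nuclear members, 0.23 ± 0.07 (edgeR BH 0.0674), with 30 of 32 old animals above the young median of 93.7 CPM. DESeq2 called it (BH 0.0244). Cox4i1 had 0.16, Ndufa4 0.15, Cox6c 0.13, Cox8a 0.09, Cox7a2 0.08, Cox5a 0.02 and Cox5b -0.02, none of them called. In ATP synthase, Atp5a1 had 0.16, Atp5k 0.11, Atp5g1 0.05, Atp5g3 0.02, Atp5b 0.01 and Atp5j -0.09, and none was called. Ndufaf1, an assembly factor, had 0.33 ± 0.17.

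Cox6a2, the muscle form, did not pass the count filter and was not among the 88. The 16 young animals had 0, 0.888 and 3.78 CPM (lowest, median and highest) and the 32 old ones 0.676, 3.17 and 13.9, and 30 old animals lay above the young median. With no filter on low counts edgeR called it higher in old animals by 1.59 ± 0.34 (BH 0.0055), on a mean of 2.06 counts per library. Cox6a2 was singled out after its values were seen. Itgad, on the other strand of the same locus, had -0.40 ± 0.36 and was not called.

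**Figure D4:**
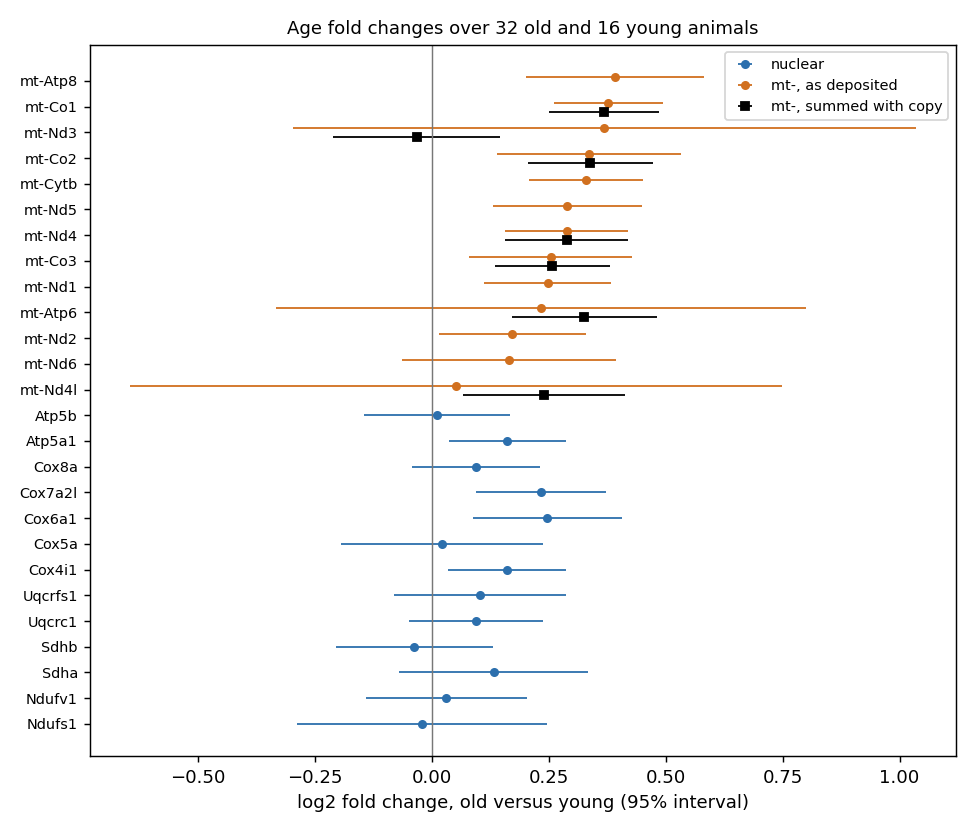
Log2 fold change from young to old (x axis) of the 13 mt- members and of 13 nuclear subunits, 1 gene per line, with both regions of an animal added (32 old and 16 young animals) and bars for the 95% interval. Circles are the genes as deposited, and squares the mt- genes added to their nuclear copy. All 13 mt- members as deposited lie above 0, with wide intervals for mt-Nd3, mt-Atp6 and mt-Nd4l, and none of the nuclear subunits drawn was called by edgeR.

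Taken region by region, the 8 comparisons of old with young animals (4 young against 7 to 9 old libraries each) called no member of either kind by edgeR, DESeq2 or limma voom. At an unadjusted p below 0.05, 2 to 9 of 85 to 88 nuclear and 0 to 6 of 13 mt- members passed, against 5.96% to 11.3% of all genes. These fits call few genes of any kind. Among controls, 0.0784% of all genes were called in hemisphere at 6 h, 0.0584% in hippocampus at 6 h, 0.0898% in hemisphere at 48 h and 0.0834% in hippocampus at 48 h. After surgery the shares were 0.00784% and 0% at 6 h, and 0.114% and 0.0834% at 48 h, in the same order of regions. The mt- medians were positive in all 8, at 0.25 (hemisphere) and 0.46 (hippocampus) in controls at 6 h, 0.47 and 0.22 after surgery at 6 h, 0.20 and 0.04 in controls at 48 h, and 0.37 and 0.34 after surgery at 48 h. The value in control hippocampus at 48 h rested on single libraries: it was -0.061 without young control replicate 3 and 0.39 without young control replicate 2. Few nuclear members were bounded within a 1.5-fold change in these 8, from 11 to 35. The nuclear medians ran from -0.23 to 0.16 and were of either sign.

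mt-Co1, mt-Cytb and mt-Nd4 had positive values in all 8 comparisons. In the order hemisphere 6 h, hippocampus 6 h, hemisphere 48 h and hippocampus 48 h, the log2 fold changes of mt-Co1 were 0.39, 0.30, 0.28 and 0.25 among controls and 0.47, 0.55, 0.51 and 0.34 after surgery, and those of mt-Cytb 0.25, 0.46, 0.21 and 0.15 among controls and 0.33, 0.36, 0.49 and 0.36 after surgery. Values of mt-Nd4 were 0.14, 0.46, 0.25 and 0.25 among controls and 0.34, 0.30, 0.42 and 0.16 after surgery. mt-Nd5 had 0.12, 0.51, 0.08 and 0.24 among controls and 0.26, 0.36, 0.32 and 0.40 after surgery, mt-Nd1 0.24, 0.50, -0.08 and 0.21 among controls and 0.29, 0.17, 0.37 and 0.27 after surgery and mt-Atp8 0.33, 0.61, -0.26 and 0.28 among controls and 0.72, 0.22, 0.55 and 0.66 after surgery. Their few values below 0 came from controls at 48 h. The lowest BH of any mt- member in the 8 was 0.252, after surgery in hippocampus at 48 h. The comparisons of 1 time and region share no libraries with those of another time or treatment, but both regions come from the same animals.

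mt-Co2 had 0.31, 0.55, 0.20 and 0.04 among controls and 0.56, 0.30, 0.41 and 0.38 after surgery, mt-Co3 0.23, 0.33, 0.47 and -0.06 among controls and 0.55, 0.22, 0.31 and -0.02 after surgery and mt-Nd2 0.25, 0.38, 0.26 and -0.16 among controls and 0.32, 0.09, 0.28 and 0.04 after surgery in the same order, and mt-Nd6 0.47, -0.19, 0.39 and -0.05 among controls and 0.56, 0.53, 0.31 and -0.25 after surgery. The genes whose counts were split with a copy took far wider values: mt-Nd3 had 1.59, 1.53, -0.34 and -0.34 among controls and 0.71, 0.04, 0.01 and -0.02 after surgery, mt-Nd4l -1.42, -0.65, -0.71 and 0.01 among controls and 0.74, 0.12, 1.28 and 0.91 after surgery and mt-Atp6 -0.45, 0.42, -0.10 and -0.22 among controls and 0.20, -0.04, 0.26 and 1.73 after surgery. With copies added, the median of the 13 stayed positive in all 8 comparisons, from 0.14 to 0.44, and still none was called. The lowest single values with copies added were -0.74 among controls and -0.52 after surgery, both in hippocampus at 48 h.

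No nuclear member passed the test in these 8 comparisons, and the extremes of each are given as values. Among control hemisphere libraries at 6 h, the largest positive values belonged to Sdhaf3 (0.94), Atp5o (0.85) and Cox6a1 (0.72) and the largest negative to Atp5g2 (-1.39), Ndufaf6 (-1.18) and Ndufs4 (-0.44). In control hippocampus at 6 h, Atp5g2 (1.03), Sdhc (1.01) and Ndufa3 (0.85) stood highest and Ndufb4 (-0.77), Ndufaf2 (-0.74) and Ndufaf8 (-0.59) lowest. In control hemisphere at 48 h, the extremes were Atp5o (0.98), Atp5g2 (0.72) and Ndufa6 (0.47) above 0 and Ndufa13 (-0.75), Cox7b (-0.58) and Sdhaf1 (-0.53) below. Atp5o, the peripheral stalk subunit known as OSCP, was high in control hemisphere at both times. In control hippocampus at 48 h, Ndufaf3 (0.68), Ndufv2 (0.55) and Sdhaf2 (0.48) led on the positive side and Atp5g2 (-1.03), Sdhaf1 (-0.998) and Ndufs8 (-0.67) on the negative side. After surgery, in hemisphere at 6 h, the largest positive values belonged to Ndufb10 (0.71), Cox6c (0.70) and Ndufab1 (0.63) and the largest negative to Sdhaf3 (-1.38), Ndufaf6 (-0.96) and Sdhaf2 (-0.55). After surgery, in hippocampus at 6 h, Atp5s (1.55), Uqcr11 (0.62) and Ndufaf4 (0.56) stood highest and Ndufb6 (-0.78) and Ndufab1 (-0.73) lowest. Ndufaf3 and Ndufaf6 are assembly factors of complex I and Sdhaf3 of complex II, and Sdhaf2 likewise of complex II. After surgery, in hemisphere at 48 h, the extremes were Atp5g2 (1.38), Ndufs4 (0.87) and Ndufaf8 (0.70) above 0 and Ndufaf3 (-0.73), Ndufaf7 (-0.52) and Ndufa10 (-0.48) below. After surgery, in hippocampus at 48 h, Atp5g2 (1.49), Ndufaf3 (1.21) and Sdha (0.82) led on the positive side and Ndufb2 (-0.65), Ndufaf8 (-0.57) and Uqcr11 (-0.47) on the negative side. The lowest BH of a nuclear member was 0.213, that of Ndufs8 in control hippocampus at 48 h (-0.67).

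Respiratory chain genes were not called with surgery. With both regions added, edgeR called none of 88 nuclear and none of 13 mt- members at 6 h (11 surgery and 12 control animals), where 1.05% of all genes were called, nor at 48 h, where the share was 0%. DESeq2 and limma voom called none either. At an unadjusted p below 0.05, 4 nuclear and 0 mt- members passed at 6 h, and 5 and 0 at 48 h, against 9.58% and 3.55% of all genes. The medians were 0.01 (nuclear) and 0.08 (mt-) at 6 h, and -0.05 and -0.01 at 48 h. For the 6 mt- genes called with age the surgery values were small. mt-Co1 had 0.03 at 6 h and 0.05 at 48 h, with 95% intervals of -0.13 to 0.20 and -0.11 to 0.21, and mt-Cytb 0.02 and -0.01 (-0.15 to 0.19 and -0.17 to 0.16).

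mt-Nd1 had 0.08 at 6 h and 0.01 at 48 h, mt-Nd4 0.03 and 0.01, mt-Nd5 0.09 and 0.04 and mt-Atp8 -0.02 and -0.11. mt-Nd2 had 0.18 and -0.12, mt-Nd6 0.14 and 0.03, mt-Co2 0.19 and -0.004 and mt-Co3 0.02 and -0.05. mt-Atp6 alone had -0.72 ± 0.40 and -0.61 ± 0.39, the direction opposite to the share of its copy. edgeR called Gm10925 higher after surgery at 6 h (BH 0.00183) and over all groups in old animals (BH 0.0235). Added to Gm10925, mt-Atp6 had 0.10 ± 0.11 and -0.02 ± 0.11. mt-Nd3 (0.34 and -0.16) and mt-Nd4l (0.20 and -0.33) had standard errors of 0.47 to 0.49. Of the 88 nuclear members, 75 had a 95% interval within a 1.5-fold change at each time, and 84 at 6 h and 86 at 48 h within a 2-fold change. Of all 17586 genes tested, 7614 at 6 h and 8634 at 48 h lay within a 1.5-fold change.

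The largest positive nuclear value at 6 h was that of Sdhc, which anchors succinate dehydrogenase in the membrane. Sdhc stood at 14.5, 9.26, 9.63 and 45.4 CPM in the 4 young controls and at 61.5, 40.2, 48.4 and 53.2 in the 4 young surgery animals at 6 h, and at 38, 20.4, 43.3 and 42.8 and 50.4, 21.7, 17 and 31.2 in those at 48 h. The lowest, median and highest old animals had 18.8, 37.4 and 57.2 CPM among the 8 controls and 26.5, 36.3 and 56.3 among the 7 surgery animals at 6 h, and 13.8, 30.6 and 52.1 among the 8 controls and 27, 38.1 and 67.5 among the 9 surgery animals at 48 h. At 6 h, 3 of the 4 young controls were below every young surgery animal and the fourth was among them. Young control replicates 1 and 4 had stepped hippocampus libraries. Old controls and old surgery animals overlapped. The fold change was 0.72 ± 0.24 (edgeR BH 0.178). Without the 6 stepped libraries it was 1.24 ± 0.29 (BH 0.0200), and without young control 6 h replicate 4 1.12 (BH 0.00613), so that this gene passed or missed the threshold with 1 animal. In hippocampus alone at 6 h, leaving out that library gave 3.08 (BH 0.00757) for surgery in young animals, against 1.69 with it, and 2.40 (BH 0.025) for old against young controls.

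The extremes at 6 h were Sdhc (0.72), Ndufaf6 (0.33) and Sdhaf4 (0.28) above 0 and Ndufaf8 (-0.48), Ndufaf2 (-0.42) and Ndufa13 (-0.37) below. Ndufa13, a complex I subunit also known as GRIM-19, had the lowest BH among them (-0.37 ± 0.11, BH 0.113). At 48 h they were Uqcrc2 (0.37), Sdhaf3 (0.31) and Ndufaf8 (0.29) above 0 and Atp5g2 (-0.85), Ndufc1 (-0.60) and Ndufs5 (-0.44) below. Among the main subunits, Sdha had 0.18 at 6 h and 0.11 at 48 h, Uqcrc1 0.04 and -0.01, Cox4i1 -0.02 and -0.04, Cox6a1 -0.01 and -0.10, Atp5a1 0.08 and -0.06 and Atp5b -0.12 and -0.19. None of these was called.

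The 8 region-wise comparisons of surgery with control also gave no calls, by edgeR, DESeq2 and limma voom, among 85 to 88 nuclear and 13 mt- members. In the order hemisphere 6 h, hippocampus 6 h, hemisphere 48 h and hippocampus 48 h, edgeR called 0.0627%, 0.0365%, 0% and 0% of all genes in young and 0.337%, 0.0876%, 0% and 0% in old animals. Nuclear members with an unadjusted p below 0.05 numbered 1, 5, 3 and 12 in young and 2, 3, 4 and 2 in old animals, and mt- members 0, 0, 0 and 0 and 1, 0, 2 and 0. The nuclear medians were 0.04, 0.08, -0.09 and -0.23 in young and 0.02, -0.05, 0.05 and 0.02 in old animals, and the mt- medians 0.04, 0.11, -0.09 and -0.21 and 0.19, -0.02, 0.16 and 0.07. Young hippocampus at 48 h had the lowest nuclear median, with 18 of 85 members above 0 and 12 of 85 (14.1%) at an unadjusted p below 0.05, against 6.12% of all genes.

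The nuclear extremes of these comparisons, none of them called, were as follows. In young hemisphere at 6 h, Sdhaf3 (1.81), Sdhaf4 (0.75) and Ndufb2 (0.74) stood highest and Sdhaf1 (-0.68), Ndufb7 (-0.63) and Atp5g2 (-0.59) lowest. In young hippocampus at 6 h, the extremes were Sdhc (1.69), Atp5d (0.95) and Ndufa3 (0.77) above 0 and Atp5s (-1.87), Ndufaf8 (-1.04) and Ndufv2 (-0.69) below. Atp5s is a regulatory factor of ATP synthase. In young hemisphere at 48 h, Ndufa10 (0.72), Atp5k (0.44) and Ndufaf3 (0.36) led on the positive side and Atp5g2 (-0.97), Ndufs4 (-0.74) and Ndufa12 (-0.69) on the negative side. In young hippocampus at 48 h, the largest positive values belonged to Uqcrc2 (0.68), Sdhaf2 (0.59) and Ndufaf4 (0.56) and the largest negative to Atp5g2 (-2.04), Atp5l (-1.08) and Ndufc1 (-0.94). Uqcrc2 is a core protein of complex III and Atp5l a subunit of the membrane part of ATP synthase. For old hemisphere at 6 h, Atp5g2 (1.17), Ndufb4 (0.77) and Ndufab1 (0.47) stood highest and Atp5o (-0.67), Sdhaf2 (-0.53) and Sdhaf3 (-0.51) lowest. For old hippocampus at 6 h, the extremes were Ndufaf4 (0.70), Ndufb4 (0.62) and Sdhc (0.39) above 0 and Atp5g2 (-0.71), Ndufb6 (-0.69) and Ndufab1 (-0.63) below. Ndufab1, the acyl carrier protein of mitochondria, stood at opposite ends in both regions. For old hemisphere at 48 h, Ndufaf8 (0.60), Cox7b (0.59) and Atp5k (0.55) led on the positive side and Atp5b (-0.37), Ndufaf7 (-0.33) and Ndufc1 (-0.32) on the negative side. For old hippocampus at 48 h, the largest positive values belonged to Sdhaf1 (0.74), Uqcrc2 (0.49) and Sdha (0.49) and the largest negative to Ndufa5 (-0.43), Ndufc1 (-0.40) and Ndufaf3 (-0.31). Of the mt- members, the largest absolute value was that of a gene split with a copy in all 8 comparisons: mt-Nd4l had 2.12 in old hemisphere at 6 h (unadjusted p below 0.05) and mt-Atp6 -1.63 in young hippocampus at 48 h. mt-Co1 stayed between -0.12 and 0.17 over the 8 comparisons and mt-Cytb between -0.13 and 0.19. mt-Atp8 had 0.39 and mt-Nd1 0.27 in old hemisphere at 48 h, where both had an unadjusted p below 0.05.

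The difference of the surgery effect between the ages (old minus young) was tested as an interaction in 4 comparisons, and no member was called by edgeR, DESeq2 or limma voom. edgeR called 0%, 0%, 0% and 0% of all genes in hemisphere 6 h, hippocampus 6 h, hemisphere 48 h and hippocampus 48 h. At an unadjusted p below 0.05, 1, 6, 3 and 5 nuclear and 0, 0, 2 and 0 mt- members passed, against 3.98%, 9.28%, 4.81% and 5.29% of all genes. Nuclear medians were -0.04, -0.14, 0.22 and 0.23 and mt- medians 0.13, -0.17, 0.23 and 0.21, the latter positive at 48 h in both regions. mt-Co1 had 0.08, 0.25, 0.23 and 0.09 and mt-Atp8 0.40, -0.39, 0.81 and 0.38. In hemisphere at 6 h, the extremes were Atp5g2 (1.76), Ndufb4 (0.87) and Ndufab1 (0.87) above 0 and Sdhaf3 (-2.32), Atp5o (-0.98) and Sdhc (-0.89) below. In hippocampus at 6 h, Atp5s (2.01), Ndufaf4 (1.02) and Ndufb4 (0.78) led on the positive side and Sdhc (-1.30), Ndufb6 (-1.30) and Atp5d (-1.23) on the negative side. Sdhc and Atp5o, seen above in single arms, recur here, and the arms share libraries with the comparisons above. In hemisphere at 48 h, the largest positive values belonged to Ndufa13 (0.89), Ndufa3 (0.86) and Ndufa12 (0.74) and the largest negative to Ndufa10 (-0.83), Ndufaf3 (-0.66) and Atp5o (-0.56). In hippocampus at 48 h, Atp5g2 (2.51), Ndufa1 (1.21) and Sdhaf1 (1.05) stood highest and Sdhaf2 (-0.54), Ndufv2 (-0.51) and Ndufaf8 (-0.34) lowest. The precision of these differences was low: only 2, 0, 2 and 2 nuclear members had an interval within a 1.5-fold change.

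The surgery effect at 48 h minus that at 6 h was tested in young and old animals of each region. Again no member was called by edgeR, DESeq2 or limma voom, against 0.00707% of all genes in young hemisphere, 0% in young hippocampus, 0.17% in old hemisphere and 0% in old hippocampus. Of the nuclear members, 1, 10, 3 and 3 and, of the mt- members, 0, 0, 0 and 0 had an unadjusted p below 0.05, against 4.32%, 8.23%, 7.38% and 6.995% of all genes. The nuclear medians were -0.10, -0.30, 0.10 and 0.12 and the mt- medians -0.13, -0.28, -0.13 and 0.07, in the same order. mt-Co1 had -0.11, 0.13, 0.03 and 0.02 and mt-Nd2 -0.27, -0.64, -0.32 and -0.09. Both medians were most negative in young hippocampus, where 10 of 88 nuclear members had an unadjusted p below 0.05 and the 2 stepped libraries of young controls at 6 h enter. In young hemisphere, Ndufb7 (0.95), Ndufaf3 (0.90) and Ndufaf2 (0.81) led on the positive side and Sdhaf3 (-1.94), Sdhaf4 (-0.94) and Ndufa12 (-0.87) on the negative side. In young hippocampus, the largest positive values belonged to Atp5s (1.43), Ndufaf8 (1.39) and Ndufv2 (1.07) and the largest negative to Atp5g2 (-2.54), Sdhc (-2.07) and Atp5d (-1.65). Atp5d is a subunit of the central stalk of ATP synthase. In old hemisphere, Sdhaf3 (0.95), Sdhaf1 (0.87) and Cox7b (0.76) stood highest and Atp5g2 (-1.49), Ndufb4 (-0.67) and Ndufs4 (-0.61) lowest. In old hippocampus, the extremes were Atp5g2 (1.19), Ndufa13 (0.76) and Ndufab1 (0.73) above 0 and Ndufa5 (-0.69), Ndufaf6 (-0.60) and Ndufb4 (-0.50) below.

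Hippocampal and hemispheric microglia of the same animals were compared with the animal as a block, in 8 groups. edgeR called no nuclear member (86 or 88 tested) and no mt- member in any of them, and limma voom none. DESeq2 called only mt-Nd4l, in old controls at 6 h (7.92, BH 0.0207), where edgeR gave 2.97 ± 1.85. There the deposited counts of mt-Nd4l were above 0 in 2 of 8 hemisphere and 5 of 8 hippocampus libraries, and those of its copy Gm10222 in 6 and 3. In the order young controls, young surgery, old controls and old surgery, edgeR called 0%, 0%, 0% and 0% of all genes at 6 h and 0%, 0%, 0.0297% and 0% at 48 h. Nuclear members with an unadjusted p below 0.05 numbered 6, 3, 1 and 6 at 6 h and 5, 2, 2 and 1 at 48 h, and mt- members 1, 0, 1 and 0 and 0, 0, 1 and 0, against 2.95% to 6.53% of all genes. All 8 nuclear medians were positive, 0.06, 0.16, 0.15 and 0.01 at 6 h and 0.22, 0.04, 0.10 and 0.00248 at 48 h. The mt- medians took either sign, -0.11, 0.07, 0.22 and -0.09 and -0.08, -0.00896, -0.04 and -0.12. Choroid plexus markers, of which Ttr is the defining one, summed to a median of 135 CPM in hemisphere (from 19 to 2430.01) and 386 in hippocampus (from 15.3 to 5733), with none of the 5 at a median of 0. Their part in the nuclear medians was not tested.

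Among young controls at 6 h, the largest positive values belonged to Ndufs5 (0.87), Sdhaf3 (0.76) and Ndufaf8 (0.72) and the largest negative to Atp5g2 (-2.17), Atp5d (-1.15) and Ndufaf6 (-0.87). Among young surgery animals at 6 h, Sdhaf1 (0.97) and Ndufaf3 (0.90) stood highest and Atp5s (-1.58), Ndufaf6 (-0.76) and Atp5g2 (-0.56) lowest. Among old controls at 6 h, the extremes were Atp5g2 (1.28), Ndufaf3 (0.59) and Atp5k (0.57) above 0 and Atp5l (-0.45), Ndufaf2 (-0.38) and Sdhaf2 (-0.32) below. Atp5g2 was an extreme in 5 of the 8 groups and on either side, a gene with a wide spread between libraries. Among old surgery animals at 6 h, Sdhc (0.71), Atp5o (0.60) and Ndufaf4 (0.59) led on the positive side and Atp5g2 (-0.99), Ndufa12 (-0.84) and Ndufb6 (-0.65) on the negative side. At 48 h, among young controls, the largest positive values belonged to Atp5s (1.07), Ndufa10 (0.70) and Atp5k (0.68) and the largest negative to Ndufv2 (-0.63), Ndufaf4 (-0.58) and Uqcrc1 (-0.39). At 48 h, among young surgery animals, Ndufaf8 (1.19), Sdhaf3 (0.88) and Uqcrc2 (0.57) stood highest and Ndufaf3 (-1.27), Ndufa5 (-0.49) and Ndufa1 (-0.41) lowest. Ndufaf3, an assembly factor of complex I, was likewise found on either side. At 48 h, among old controls, the extremes were Ndufaf3 (0.74), Ndufa5 (0.73) and Cox7b (0.68) above 0 and Atp5g2 (-0.65), Sdhaf1 (-0.38) and Ndufb2 (-0.32) below. At 48 h, among old surgery animals, Ndufaf3 (0.56), Ndufaf4 (0.43) and Ndufa9 (0.36) led on the positive side and Sdhaf3 (-0.57), Ndufb6 (-0.41) and Ndufa3 (-0.39) on the negative side. mt-Co1 had 0.05, -0.11, 0.0031 and -0.06 at 6 h and -0.08, -0.01, -0.11 and -0.17 at 48 h, and mt-Cytb had -0.15, 0.02, 0.11 and 0.03 and 0.06, 0.00052, 0.0008 and -0.12. mt-Nd5 had 0.42 in old controls at 6 h, mt-Atp8 0.38 in old controls at 48 h and mt-Nd6 0.71 in young controls at 6 h, each with an unadjusted p below 0.05 and no call.

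**Figure D5:**
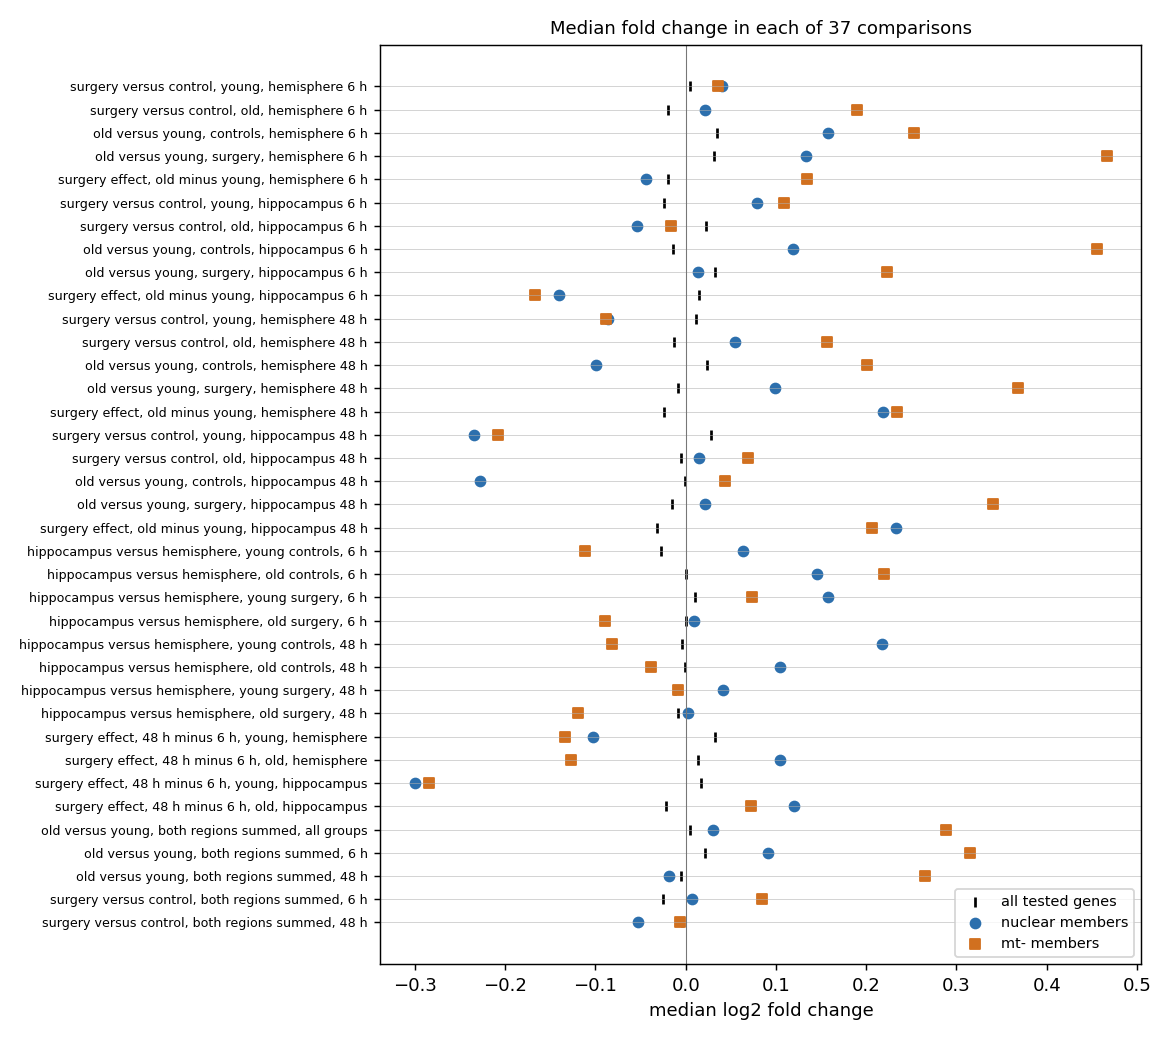
Median log2 fold change of the tested nuclear members, of the 13 mt- members and of all genes tested, 1 row of points per comparison, over the 32 comparisons within regions, times and ages and the 5 with both regions of an animal added. The mt- medians are positive in every comparison of old with young animals, and the medians of all genes stay between -0.03 and 0.03 in the 32.

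Other genes of mitochondrial metabolism were read from lists chosen with earlier results of these data known. With both regions added, old animals were compared with young ones over all groups. None of 13 genes of the TCA cycle was called (median -0.01), none of 14 genes of mitochondrial genome upkeep and transcription (0.03), and none of 29 electron carriers and other assembly factors (-0.04). By edgeR, 0, 1 and 2 of these had an unadjusted p below 0.05, against 10.4% of all genes. Tfam, which packages and transcribes mitochondrial DNA, was not called (0.27, edgeR BH 0.824), nor was the polymerase Polrmt (-0.33, edgeR BH 0.458) or Lrpprc, which stabilises mitochondrial mRNAs (0.03, edgeR BH 0.987). Cytochrome c was not called either (Cycs, 0.39, edgeR BH 0.326). Of 78 mitochondrial ribosomal protein genes 1 was called, Mrps10, which fell by 0.36 on the log2 scale (edgeR BH 0.0429), and their median was -0.07. Of 8 regulators 1 was called higher in old animals, Ppargc1a, the coactivator that drives mitochondrial biogenesis (1.21, edgeR BH 0.0355), which was also called at 6 h (2.13, edgeR BH 0.0106). Ppargc1a was not called at 48 h (0.289, edgeR BH 0.924). Nrf1 was not called (0.05, edgeR BH 0.964). All these values stand beside a background of 1.9% of genes called.

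None of 20 glycolysis genes was called over all groups by edgeR, with a median of 0.15 and 8 of 20 at an unadjusted p below 0.05, against 10.4% of all genes. At 48 h Pfkfb3, which makes the activator of phosphofructokinase, was called (0.55, edgeR BH 0.0305), where 0.887% of all genes were called. After surgery at 6 h, where 1.05% of all genes were called, 1 of 5 carriers was called, Ucp2, a carrier of the inner membrane, which rose in the summed animals (0.83, edgeR BH 1.53e-05) and in old hemisphere (1.13, edgeR BH 0.000129), beside respiratory chain members that were not called. Ucp2 was not called at 48 h (0.06, edgeR BH 1.000) or by age (-0.29, edgeR BH 0.0629). None of the 20 glycolysis genes, the 13 TCA genes or the 78 ribosomal protein genes was called after surgery at 6 h by edgeR, where 3, 1 and 3 of them, and 9.58% of all genes, had an unadjusted p below 0.05.

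The promoters of nuclear respiratory genes are known for sites of NRF-1 and of ETS factors such as GABP. RefSeq promoters (GRCm38.p6, 250 bases before to 50 after the start) were found for 78 of the 98 nuclear members and searched on both strands for GCGCATGCG, the NRF-1 motif, and CCGGAAG, an ETS motif. A match of one can overlap a match of the other by at most 1 base. The NRF-1 letters stood in 10 of 78 members (12.8%), against 2.74% of 16514 protein-coding genes and 1.95% of all genes with a promoter in the table. The ETS letters stood in 21 of 78 (26.9%), against 13.4% of coding genes and 9.93% of all. These are matches of letters and no evidence of binding, and no call in these data was tested against them. The promoter of Cox6a1, the only nuclear member that edgeR called with age among the 88 that passed the count filter, and that at 6 h alone, holds both motifs and is shown for the 250 bases before its RefSeq start (GRCm38.p6, chr5:115348959-115349208, minus strand, read 5′ to 3′), with the matches in capitals. The ETS match is on the opposite strand, and a further base is in capitals where 2 overlapping NRF-1 matches lie on opposite strands.
Cox6a1: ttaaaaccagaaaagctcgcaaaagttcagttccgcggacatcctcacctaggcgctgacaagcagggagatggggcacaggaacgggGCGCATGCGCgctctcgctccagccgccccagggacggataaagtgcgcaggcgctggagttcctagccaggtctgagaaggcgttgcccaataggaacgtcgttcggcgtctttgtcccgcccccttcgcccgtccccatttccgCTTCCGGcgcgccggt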

How the data were processed

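Per the labels' protocols, RNA of 1000 sorted microglia per library was sequenced by Smart-seq2. The deposited values are estimated counts per gene model, which the authors did not normalize, and they were rounded to whole numbers here. For the aligner, counting tool and annotation no name is given in the sources used here. The submitters' processing notes list DESeq2 1.36.0, R 4.2.1 and the mm10 build. Of 54532 identifiers, 54495 matched GENCODE M21, and the other 37 held 0.00169% of the counts.

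Tests used edgeR 4.0.16 in R 4.3.3: TMM scaling, a filter at a minimum count of 10, robust quasi-likelihood F-tests and Benjamini-Hochberg adjustment (BH, threshold 0.05) over all genes tested. Comparisons within a region and time used 4 fits, those between regions 2 fits with the animal as a block, and those between times 2 fits, giving 32 comparisons. The fit of 48 animals with both regions summed (5 comparisons) and the sums of mt- genes with their copies were chosen after the data were seen. DESeq2 1.42.0, limma voom (3.58.1), other scalings and filters, and leaving out each library or animal were alternatives. Replicates are separate animals. The members and lists were chosen with earlier results of these data known. Named genes are all mt- members, a fixed set of nuclear subunits and, per comparison, the 3 nuclear members at either end of the fold changes, 1 of which is not reported here by name.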

Additional observations from a re-analysis of the deposited data

Results flagged for a closer look

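Over 14 measures, 224 groups of 4 to 9 libraries were examined for a highest or lowest library far from the others, and 20 were found. Chance gives about 1 in 20 groups. No explanation was tested for any of them.

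Replicate 2 of old surgery hippocampus at 6 h was the highest library of its group in mt-Co1 (1831 CPM), mt-Cytb (833), mt-Nd4 (529) and mt-Nd5 (1107). Replicate 1 of old surgery hippocampus at 48 h was highest in mt-Cytb (647) and mt-Nd5 (867). Among the mt- genes, mt-Co1 was also far higher than in the other libraries of the group in replicate 1 of old control hemisphere at 48 h (1294) and replicate 2 of young control hippocampus at 48 h (936), and mt-Nd4 in replicate 4 of young surgery hippocampus at 6 h (354).
Low values of mt-Nd4 stood in replicate 7 of old control hemisphere at 6 h (156), a stepped library, replicate 6 of old control hippocampus at 6 h (252) and replicate 1 of young surgery hippocampus at 48 h (189). mt-Cytb was low in replicate 1 of young control hemisphere at 6 h (354), and mt-Nd5 in replicate 5 of old control hippocampus at 48 h (348).

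That last library also had the lowest nuclear sum of its group (3393 CPM). The nuclear sum was far above the others in replicate 6 of old surgery hippocampus at 48 h (5412), which also led in Ndufa4 (116), and in replicate 2 of young control hemisphere at 6 h (5176), which also led in Cox6a1 (68.6). Cox4i1 was lowest in replicate 1 of young surgery hippocampus at 6 h (181).

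Outside the members, Gm10925 held 51.05% of its joint counts with mt-Atp6 in surgery libraries at 6 h, above the 18.1% of the controls at 6 h. The sum of mt-Atp6 and Gm10925 was not called by edgeR with surgery at 6 h, and the cause of the uneven split was not tested.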

How the results depend on the processing

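The 6 mt- calls over all groups (mt-Co1, mt-Cytb, mt-Atp8, mt-Nd4, mt-Nd5 and mt-Nd1) were also made by limma voom, by DESeq2, under both other scalings, without the stepped libraries, with the share of the large models as a covariate and with the replicate block. At 48 h the block by replicate number joins animals of distant sort numbers, so that it accounts for no known batch there. With no filter on low counts 2 mt- members were called, and 2 within the sort range of the young animals. Of 2556 recomputed counts of called members, 2460 were within 1.5 times the first value. The first count was 0 for both kinds in all 32 comparisons without summed regions, and a 0 that stayed 0 is tallied here. Of 2572 medians and differences of summed levels, 2561 moved by less than the SD of the summed level within groups. That SD was 0.258 for mt- and 0.169 for nuclear members. For mt- members it is close to the median age difference of 0.29, so that this tally is a loose one. No value called changed sign.

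Over all groups the nuclear count of 0 became 1 with DESeq2 and with the replicate block (Cox7a2l), with no filter and under both other scalings (Cox6a2) and with the covariate (Ndufs8), and 2 without the stepped libraries (Cox7a2l and Cox6a2). At 6 h the nuclear count of 1 became 0 with no filter, without the stepped libraries and within the sort range, and 2 under both other scalings, where Cox6a2 joined Cox6a1. The 2 mt- calls at 6 h became 4 with DESeq2, 4 with the replicate block, 1 without the stepped libraries (mt-Nd3), and 0 with no filter and within the sort range. The mt- call at 48 h became 2 with DESeq2, limma voom, the covariate and the replicate block (mt-Cytb joined), and 0 with no filter and within the sort range. For surgery at 6 h, 1 nuclear member was called without the stepped libraries (Sdhc) and 1 with the covariate (Ndufa13, -0.43), and 1 mt- member without the stepped libraries (mt-Nd3, 4.58). The counts of mt-Nd3, called there for age and for surgery at 6 h, were split with its copy Gm28438. In young control 6 h replicates 2 and 3 mt-Nd3 stood at 0, and with its copy at 57.4 and 52 CPM. The sum with the copy was not fitted without the stepped libraries. Between regions, with no filter, 1 nuclear member was called in young controls at 6 h and 1 in old controls at 6 h, and 1 mt- member in old controls at 6 h (also 1 by DESeq2) and 1 in young surgery animals at 48 h.

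With the covariate, nuclear medians moved to -0.17 (surgery, young hippocampus 6 h), -0.15 (old against young controls, hippocampus 6 h), 0.19 (the age difference of the surgery effect, hippocampus 6 h) and -0.088 (48 h minus 6 h, young hippocampus). Within the sort range, medians for old against young surgery animals in hippocampus at 6 h were 0.22 (nuclear) and 0.60 (mt-), and mt- medians were 0.36 (hippocampus against hemisphere, old surgery 6 h) and 0.27 (48 h minus 6 h, old hemisphere). Without the stepped libraries the nuclear median of hippocampus against hemisphere in old surgery animals at 6 h was 0.19. The causes were not tested.

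Leaving out each library or animal in turn, the mt- calls ran from 1 to 3 at 6 h and from 0 to 2 at 48 h, and from 4 to 8 over all groups. The nuclear calls ran from 0 to 2 over all groups, from 0 to 2 at 6 h, from 0 to 1 at 48 h and from 0 to 2 for surgery at 6 h. In single regions they ran from 0 to 1 for surgery in young hippocampus at 6 h and for old against young controls in hippocampus at 6 h (Sdhc in both). The mt- median ran from -0.27 to 0.18 for hippocampus against hemisphere in young controls at 6 h, and from -0.061 to 0.39 for old against young controls in hippocampus at 48 h.

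Same-numbered libraries of different groups deviated together slightly more than others did: the median correlation, averaged over regions and times, was 0.0247 over 110 pairs, 24 of them above 0.1, against -0.00234 over 722 pairs of different numbers, 104 of them above 0.1. At 6 h replicates 1 to 4 of the 4 groups also have neighbouring sort numbers. Libraries of the same animal from both regions scored about as low, with a median of 0.0308 over 48 pairs, 12 of them above 0.1. The correlations therefore cannot decide whether the numbers pair the animals. The labels name no day or batch for a number, and the main fits did not pair animals by it. With the replicate block over all groups, 7 mt- members were called, mt-Co1 at 0.44, and 260 genes of all, against 335 without it.

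Depth and the 4 young libraries per group limit the comparisons in single regions, and Cox4i2, Cox7a1, Cox8b and Ndufa4l2 lay near 0 throughout.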
